A study of Mus musculus with 6 samples.

Results

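The miRNAs described here carry late registry numbers, that is, they are named mmu-miR-N with N of at least 1000. Of the 756 mature miRNAs in the deposited table, 208 (27.5%) met this rule after 6 numbers of the Dlk1-Dio3 cluster and 4 of the Htr2c introns had been set aside. They come from 181 precursors, 27 of which are listed with both arms. The libraries were made from the dorsal striatum of mice aged 7 weeks of the C57BL/6N strain, and the question was how its miRNAs differ after nicotine withdrawal. In the withdrawal group (n = 3), daily intraperitoneal nicotine (0.5 mg/kg) was given for 3 days, and 24 hours later the nicotinic receptor antagonist mecamylamine (3.0 mg/kg) was given. The saline group (n = 3) had neither drug, so nicotine and mecamylamine cannot be told apart. In both groups the striatum was collected 1 week after injections ended, and no genetic alteration is labelled in either. Each library was taken as 1 mouse; if some are not separate animals, the spread behind the p-values is technical in part.

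miRNAs are numbered in the order of their discovery, so high numbers mostly belong to small RNAs found by deep sequencing, many of them known only in rodents. A canonical miRNA is cut from a hairpin by Drosha and then by Dicer, and 1 strand is loaded into Argonaute, where the seed (bases 2 to 8) pairs with target messenger RNAs. A mirtron skips Drosha: its hairpin is a short intron released by splicing, so that the 3p arm ends with the AG of the 3′ splice site. Other members are cut from small nucleolar RNAs (snoRNAs) or small Cajal body RNAs (scaRNAs), which otherwise guide chemical modification of ribosomal and spliceosomal RNA. Values below are normalized reads, which are counts scaled by the authors for library size, so they depend on each miRNA's share of the library. In bulk tissue, fewer cells of a type and less RNA per cell cannot be told apart.

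Mature sequences from RefSeq (GRCm38.p6) matched 186 of the 208 members. The first set shows the 4 members that passed the test of withdrawal against saline, with the seed in capitals; no 2 of them share a seed.
miR-3068-5p: uUGGAGUUcaugcaaguucuaacc
miR-3061-3p: cUACCUUUgauaguccacugcc
miR-3085-3p: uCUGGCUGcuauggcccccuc
miR-6238: uUAUUAGUcaguggaggaaaug

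The second set shows the most abundant members. The 5p arms of miR-1843a and miR-1843b share a run of 20 bases and are offset by 1 base, so that their seeds, in capitals, differ.
miR-1843b-5p: aUGGAGGUcucugucugacuu
miR-1843a-5p: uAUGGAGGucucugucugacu
miR-1249-3p: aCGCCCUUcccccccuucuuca
miR-1839-5p: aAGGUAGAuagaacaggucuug

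The third set shows the mirtron form in whole hairpins, with the listed mature arms in capitals. Mir6944 (chr13:55477681-55477776, minus strand, GRCm38) is a 96-base intron of Dbn1, which encodes the actin-binding spine protein drebrin. Mir1224 (chr16:20604452-20604536, plus strand) is an 85-base intron of Vwa5b2. Both begin with GU and end with AG, the ends of a spliced intron. Mir3068 (chr12:87437679-87437757, minus strand) is shown beside them as the precursor of the member that rose. It lies inside a longer intron of Alkbh1, in an RNA that GENCODE M21 annotates as a snoRNA, and neither begins with GU nor ends with AG.
Mir6944: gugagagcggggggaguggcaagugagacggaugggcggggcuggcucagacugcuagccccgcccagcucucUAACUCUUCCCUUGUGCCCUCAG
Mir1224: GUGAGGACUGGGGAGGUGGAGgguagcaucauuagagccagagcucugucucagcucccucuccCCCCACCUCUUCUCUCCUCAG
Mir3068: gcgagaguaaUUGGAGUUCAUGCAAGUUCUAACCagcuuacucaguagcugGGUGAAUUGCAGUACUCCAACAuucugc

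The late-numbered miRNAs lie mostly inside introns. Against the GENCODE M21 annotation, 145 of the 186 with a sequence (78.0%) lay in an intron of a gene on the same strand, against 218 of 468 other miRNAs (46.6%). A further 19 overlapped an exon or an exon-intron border, 7 lay only antisense to a gene, and 15 lay between genes. Among the 3p arms, 63 of 109 (57.8%) ended within 3 bases of an annotated intron's 3′ end, 47 of them exactly at it. Among the 228 3p arms of the other miRNAs, 2 did so (0.877%). The mature sequence ended in AG in 49 of the 109 late-numbered 3p arms and in 15 of the 228 others. The 3p arms were also rich in pyrimidines, the bases that line the 3′ end of introns, with a median of 68.2% against 54.5%.

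The splice-end pattern was densest from miR-6896 to miR-7092, a run of numbers that holds many mouse mirtrons. There, 40 of 42 3p arms (95.2%) ended within 3 bases of an intron end, 31 exactly, and 31 ended in AG. In 14 of the 58 members of this series with a sequence, both ends of the hairpin lay within 30 bases of the ends of 1 intron, as in Mir6944. These are features of the registered sequences and the annotation, not of the libraries, and they were compared without a test.

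**Figure D1:**
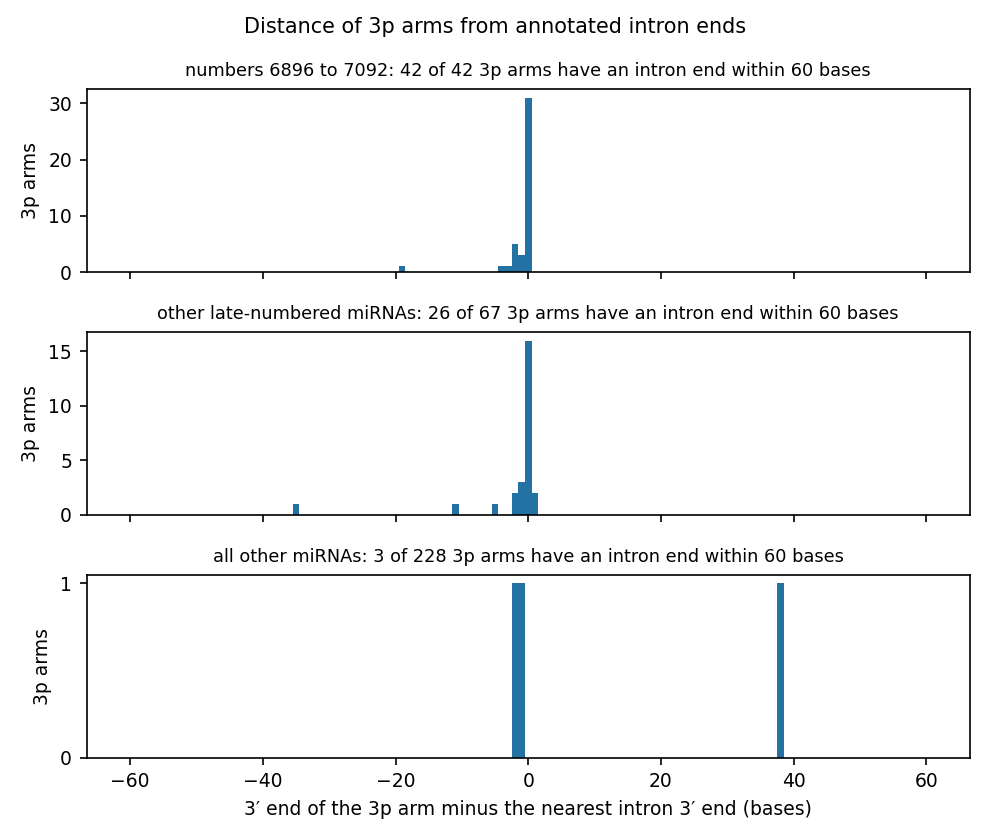
Position of the 3′ end of each 3p arm relative to the nearest annotated intron 3′ end, in bases, for miR-6896 to miR-7092 (top), the other late-numbered miRNAs (middle) and all other miRNAs of the table (bottom); the y axis counts arms. The bar at 0 holds 31 of the 42 arms in the top panel, while 3 of the 228 arms in the bottom panel have an intron end within 60 bases.

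A second origin was rarer but held most of the late-numbered reads as listed. The precursors of 15 members overlapped an RNA annotated as a snoRNA or scaRNA (8.07% of those with a sequence, against 0.641% of the others). They are both arms of miR-1843a in Scarna3b, miR-1843b in Scarna3a, miR-3068, miR-3069 in Scarna13, miR-3084 and miR-6516, together with miR-1839-5p, miR-3535 and miR-5121 in Snord33. Several sit in genes known as hosts of such RNAs, namely Rpl13a, Ncl (nucleolin), Snhg10 and Snhg20. These 15 took 54.6% of all late-numbered reads, with a median level of 983 normalized reads. That share includes the 5p arms of miR-1843a and miR-1843b, which share a run of 20 bases, so reads may be counted for both. The 71 members whose precursor has an arm at an intron end took 8.86%, with a median level of 27.3. Whether reads of the host snoRNA or scaRNA enter these values was not tested, and the aligner is not given in the sources used here. Nuclear transfer RNA genes were not among the classes searched. Members placed between genes, such as miR-1983 and miR-6240, were not compared by sequence with transfer or ribosomal RNA.

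Seeds were compared only among the 186 members and 468 other miRNAs of the deposited table with a matched sequence. Few members shared a seed there, and the rate among the other miRNAs was not computed. Only miR-7661-3p and miR-3077-3p shared one within the group, UGACUCC, and 6 members shared a seed with a miRNA outside it. Among the latter are miR-6240 with miR-330-3p and miR-1983 with miR-412-3p.

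Together the 208 members were a small part of the striatal miRNA pool. They took 0.355%, 0.370% and 0.380% of normalized reads in the saline libraries and 0.369%, 0.377% and 0.384% in the withdrawal libraries. The ranges overlapped, at 0.368 ± 0.0125% and 0.377 ± 0.00747% (mean ± SD, n = 3 each). The median member stood at 35.1 normalized reads over the 6 libraries, against 1471 for the other miRNAs. Library totals were estimated from the spacing of the values at 40111870 to 50480767 reads in saline and 44529730 to 53262896 in withdrawal. The smallest positive values stand for 4 or 5 reads if a step of that spacing is 1 read, so a listed 0 may cover fewer. A total of 173 members were above 0 in every library, and none was at 0 in all 6.

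Levels were steeply uneven. The 4 members above 10000 normalized reads held 56.7% of the late-numbered reads, the 12 most abundant held 81.6%, and the 21 of at least 1000 held 90.0%. miR-1843b-5p was the most abundant, at 32383, 32133 and 34053 in saline and 33199, 33228 and 34829 in withdrawal. miR-1843a-5p followed at 29588, 28621 and 31469.8 in saline and 29852, 29517 and 31860.3 in withdrawal. The ratio of miR-1843b-5p to miR-1843a-5p stayed between 1.08 and 1.13 in the 6 libraries. Because they share 20 bases, reads of the pair may be split or counted for both.

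miR-1249-3p, whose number is also given to a human miRNA, was the third. It stood at 14060.3, 18900.1 and 18976 in saline and at 15357, 17827 and 16762 in withdrawal. Saline 1 was the lowest of the 6, and the saline libraries varied with a coefficient of variation of 16.3%, against a median of 3.66% among the 21 members of at least 1000. miR-1839-5p was the fourth, at 13833 ± 466 in saline and 14543 ± 734 in withdrawal. It lies in an intron of 2900076A07Rik.

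The next members in order were miR-3099-3p (in an intron of Usp29, an imprinted gene of the Peg3 region), miR-3059-5p (Mgat4c), miR-1983 (between genes), miR-1198-5p (Gripap1, which encodes a partner of the glutamate receptor scaffold GRIP) and miR-3068-3p. Their saline means were 8030.2, 6772, 5921, 5055 and 4816 normalized reads. The place given for miR-1983 rests on gene classes without nuclear transfer RNA genes. miR-3102-3p, a mirtron in Arhgef17, miR-1843b-3p and miR-1839-3p closed the 12, at 3698 ± 123, 3912 ± 355 and 3791 ± 121, and did not differ from one another beyond their spread. The most abundant of miR-6896 to miR-7092 was miR-6944-3p of Dbn1, rank 14.

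**Figure D2:**
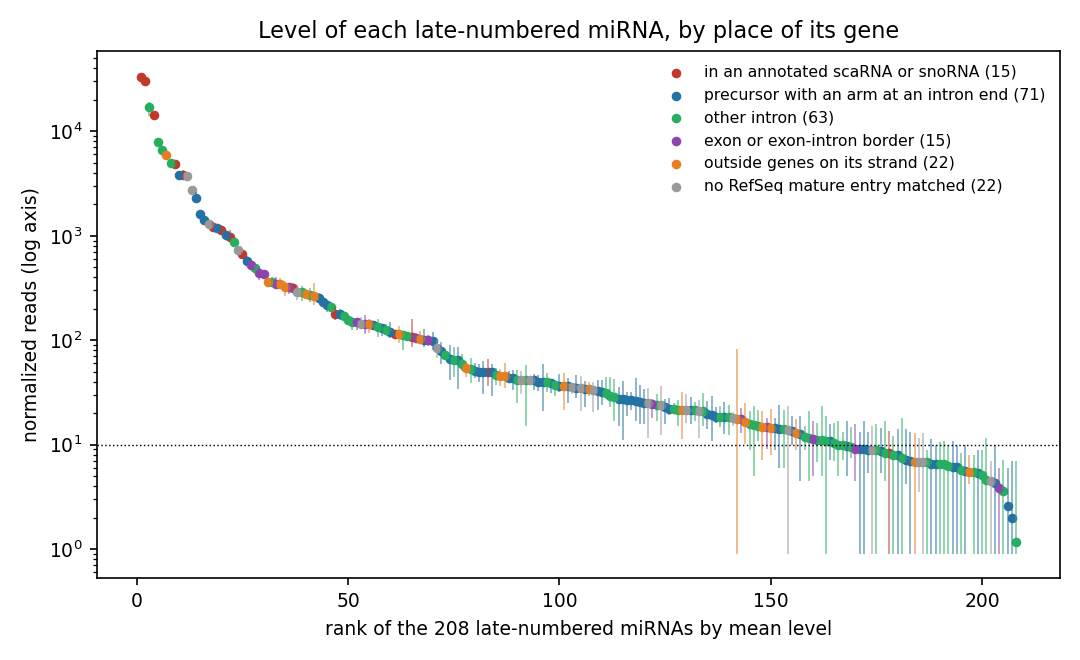
Mean normalized reads over 6 libraries (log axis) of the 208 late-numbered miRNAs in order of level, 1 point each, coloured by the place of the gene; vertical lines run from the lowest to the highest library and reach 0.9, the foot of the plot, where a library is listed at 0. The dotted line marks 10 normalized reads, and the members in scaRNAs or snoRNAs hold ranks 1, 2 and 4.

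Further splice-end members are named here with their hosts, without a count of neuronal genes among the hosts. By level, and chosen after their values were seen, those after miR-3102-3p and miR-6944-3p were miR-3082-3p in Stub1, which encodes a ubiquitin ligase, both arms of miR-1981 in Marc2, and miR-1224-5p in Vwa5b2. Their saline means were 1565, 1415 (5p arm), 1199 (3p arm) and 1059 normalized reads. miR-7019-3p lies in Pink1, the kinase of mitochondrial quality control, and averaged 177 over the 6 libraries. Both arms of miR-7056, in Ptpn5, the gene of the striatum-enriched phosphatase STEP, were too low to be tested, at saline means of 6.42 (5p) and 7.81 (3p).

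Withdrawal was then compared with saline. A member was tested if it reached 10 normalized reads in at least 3 of the 6 libraries, which 170 did; the other 38 never exceeded 18.1 in a library. The test was limma on log2(value + 1) over all 699 miRNAs that passed this filter, with p adjusted by Benjamini-Hochberg and called below 0.05. Fold changes are on that scale (withdrawal over saline, ± SE) and understate those of low miRNAs. In this test 4 of the 170 late-numbered miRNAs passed, 1 higher and 3 lower, which is 2.35% of them, while 6.58% of all 699 passed (3.00% higher and 3.58% lower). The test without the trend of variance on level passed none of them (smallest adjusted p = 0.141), and leaving out saline 2 left none either (smallest adjusted p = 0.0687).

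miR-3068-5p, from the snoRNA in Alkbh1, a gene of nucleic acid demethylation, was the one that rose. Its saline values were 1111, 1049 and 1029 normalized reads, and its withdrawal values 1223, 1254 and 1207. Each withdrawal library stood above each saline library, and the mean went from 1063 ± 42.7 to 1228 ± 23.9 (SD, n = 3 each), a difference of 15.6%. The log2 fold change was 0.21 ± 0.05 (limma, adjusted p = 0.0246). Its partner arm miR-3068-3p, the more abundant, stood at 4697, 4787 and 4964 in saline and 4699, 4905 and 5193 in withdrawal. Those ranges overlapped, and its log2 fold change was 0.03 ± 0.04 (limma, adjusted p = 0.693).

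miR-3085-3p, encoded between genes at chr19:42280082-42280170 (minus strand, GRCm38), fell. It stood at 365, 372 and 363 normalized reads in saline and at 293, 291 and 263 in withdrawal. The saline libraries lay close together and all above the withdrawal libraries. The mean was 23.1% lower in withdrawal, a log2 fold change of -0.38 ± 0.08 (limma, adjusted p = 0.00999).

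miR-3061-3p also fell. Its precursor (chr11:52126746-52126836, plus strand, GRCm38) overlaps an exon or exon border of Ppp2ca, the gene of a catalytic subunit of protein phosphatase 2A. The saline values were 454, 507 and 501 normalized reads and the withdrawal values 391, 379 and 421, without overlap. The log2 fold change was -0.29 ± 0.07 (limma, adjusted p = 0.0292). The 5p arm was less abundant and overlapped between groups, with 87.2, 106 and 112 in saline and 97.6, 107 and 90.9 in withdrawal (log2 fold change -0.04 ± 0.14).

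miR-6238, encoded between genes at chr7:53891761-53891889 (minus strand, GRCm38), was above 0 in saline alone. It stood at 12.5, 82.7 and 11.0 normalized reads there and was listed at 0 in each withdrawal library (limma, adjusted p = 0.00673). Saline 2 was far above the other saline libraries. No fold change is given against a group at 0. It passed the filter through the saline libraries alone, and without it 3 of 169 members passed (1.78%).

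**Figure D3:**
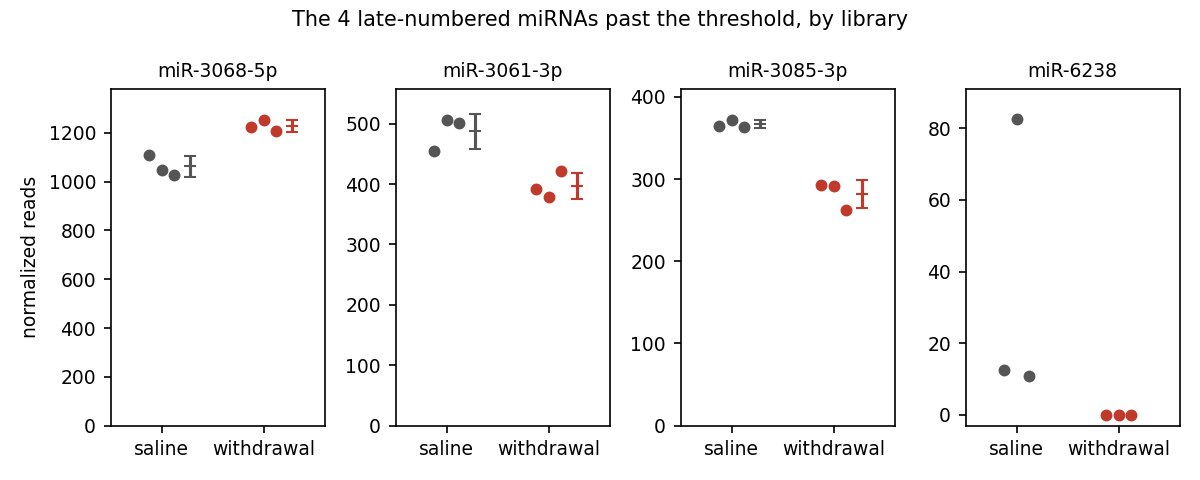
Normalized reads per library for the 4 late-numbered miRNAs that passed the test (linear axes, 1 point per library; bars are mean ± SD of 3 libraries, not drawn for miR-6238). The groups do not overlap in any panel, and the saline values of miR-6238 run from 11.0 to 82.7.

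These calls rested on few libraries. miR-3068-5p and miR-3061-3p each missed the threshold without saline 2, saline 3, withdrawal 1 or withdrawal 2, with adjusted p up to 0.129 and 0.137, and also after quantile normalization (adjusted p = 0.0780 and 0.0914). miR-3085-3p missed it when saline 2 was left out (adjusted p = 0.0687) and without the variance trend, and passed in 14 of 16 alternative settings. miR-6238 missed it without saline 2, its highest library (adjusted p = 0.0807), without the trend and after quantile normalization (adjusted p = 0.0780).

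Taken over all 170 tested members, the 4 that passed included, the median log2 fold change was -0.03, with quartiles of -0.15 and 0.13, and the median over all 699 tested miRNAs was 0.00. The groups did not overlap for 26 of the 170 (15.3%), 6 higher and 20 lower. Of all 699 tested miRNAs 27.6% did not overlap, 91 higher and 102 lower. The 20 lower include miR-6238 and miR-6990-5p, which passed the filter only through the saline libraries. An unadjusted p below 0.05 was found for 22 of the 170, the 4 included, against 22.9% of all tested.

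The lower members closest to the threshold were miR-6240, miR-1964-3p, miR-7046-3p, miR-6944-3p and miR-6990-5p. miR-6240, encoded between genes, stood at 254, 352 and 293 in saline and 219, 225 and 241 in withdrawal, without overlap (log2 fold change -0.38 ± 0.11, limma, adjusted p = 0.0603). miR-1964-3p, in an intron of Zfp84, stood at 82.7, 65.8 and 86.8 in saline and 45.8, 44.7 and 63.4 in withdrawal (-0.61 ± 0.18, adjusted p = 0.0695). miR-7046-3p, a mirtron arm in Rabac1, stood at 75.9, 72.9 and 86.8 against 65.7, 50.9 and 34.2 (-0.68 ± 0.21, adjusted p = 0.0802). In each of these 3 the lowest saline library was above the highest withdrawal library, with the narrowest gap for miR-1964-3p. Leaving out 1 library brought them past the threshold in some cases: miR-6240 without saline 1 or withdrawal 3 (adjusted p = 0.0265 and 0.0378), miR-1964-3p without withdrawal 3 (0.0221) and miR-7046-3p without withdrawal 1 (0.0182).

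miR-6944-3p, the drebrin mirtron printed above, stood at 2265, 2419 and 2625 in saline and 2264, 2208 and 2098 in withdrawal. The highest withdrawal library lay just below the lowest saline library, and the difference did not pass (-0.15 ± 0.05, limma, adjusted p = 0.122). It passed without saline 1 (-0.20, adjusted p = 0.0407) and shrank to -0.10 without saline 3. miR-6990-5p, in Esrra, was at 12.5, 12.4 and 17.0 in saline and at 6.97, 5.36 and a listed 0 in withdrawal (limma, adjusted p = 0.130). Like miR-6238, it passed the filter only through the saline libraries, where it is high, and its p supports nothing further.

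The higher members closest to the threshold were miR-6940-3p, miR-3069-3p, miR-1969, miR-3535 and miR-6932-5p. miR-3069-3p, from Scarna13 in Snhg10, stood at 157, 177 and 158 in saline and 184, 208 and 192 in withdrawal (0.25 ± 0.10, limma, adjusted p = 0.156). miR-3535, in the Ncl gene, stood at 892, 956 and 952 in saline and 978, 993 and 1125 in withdrawal (0.14 ± 0.06, adjusted p = 0.185). Both come from small RNA genes and neither pair of groups overlapped. The other three were low, with saline means from 15.8 to 19.0 and log2 fold changes of 0.92 ± 0.31 for miR-6940-3p in Cep170b, 0.81 ± 0.33 for miR-1969 and 0.65 ± 0.29 for miR-6932-5p in Helz (adjusted p = 0.104 to 0.191).

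**Figure D4:**
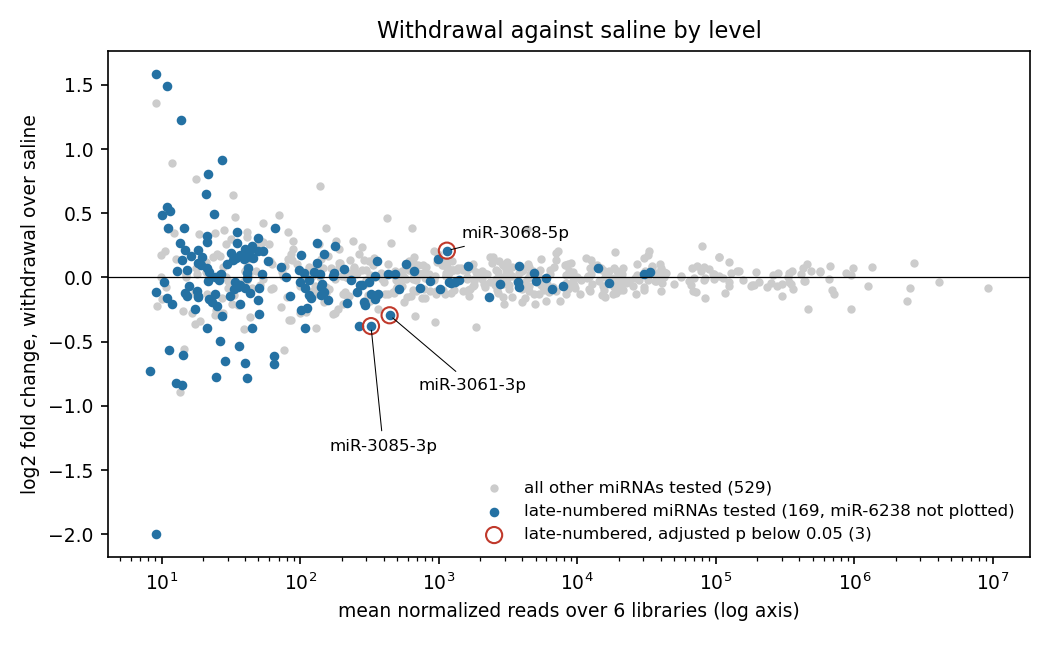
Log2 fold change of withdrawal over saline against mean normalized reads (log axis) for the tested miRNAs, 1 point each; blue points are late-numbered, grey points all others, and rings mark those that passed. miR-6238 is left out because its withdrawal libraries are listed at 0, and the spread of the blue points widens toward low levels.

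The counts by number block and by origin are read against the 6.58% of all 699 tested miRNAs that passed. By number block, none of 37 tested members of the 1000s passed, 3 of 45 of the 3000s did (1 higher, 2 lower), none of 10 of the 5000s, 1 of 10 from 6000 to below miR-6896 (miR-6238), none of 45 from miR-6896 to miR-7092 and none of 23 above. The blocks' most abundant members not yet described were miR-5099, miR-6540-5p and miR-7689-3p, with log2 fold changes of -0.05 ± 0.04, -0.04 ± 0.05 and -0.13 ± 0.08 (limma, adjusted p = 0.510, 0.725 and 0.382). By origin, 1 of 15 tested in snoRNAs or scaRNAs passed, none of 56 at splice ends, none of 47 in other introns, 1 of 14 at exons, 2 of 20 outside genes of their strand and none of 18 without a sequence. These counts include miR-6238, in its block and among those outside genes of their strand, although it passed the filter only through the saline libraries. With counts this small, no block or origin is set apart by them.

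The run of numbers that holds many mirtrons gave no call. The 45 tested members from miR-6896 to miR-7092 had a median log2 fold change of 0.02 (all tested 0.00), 24 positive and 21 negative, and 3 further mirtron arms of miR-1224 and miR-3102 gave -0.09. An unadjusted p below 0.05 was found for 8 of the 45 (2 higher and 6 lower), while 22.9% of all tested miRNAs had one (70 higher and 90 lower). miR-3102-3p, at 3786, 3751 and 3558 in saline and 4033, 4084 and 3668 in withdrawal, stood at 0.09 ± 0.05 with a 95% interval from -0.01 to 0.19 (limma, adjusted p = 0.287).

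A set list of numbers shared with a human miRNA held 13 members. The list was not checked against a registry and may be incomplete. None of the 13 passed, against 6.58% of all 699 tested miRNAs, and 13 are too few to set them apart. Their median log2 fold change was -0.04. They include miR-1249-3p, with an interval from -0.24 to 0.15, and miR-1306-5p of Dgcr8, the gene of Drosha's RNA-binding partner, at 427 in saline and 434 in withdrawal (0.02 ± 0.07). miR-1247-5p, with a log2 fold change of -0.09 ± 0.07, lies in Dio3os at the edge of the Dlk1-Dio3 region and was not among the numbers set aside.

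miR-3074 is known from the strand opposite the miR-24 genes, and RefSeq places its 5p arm at 2 loci, so its reads cannot be given to 1 of them. Its arms stood at 33.9 (5p) and 35.1 (miR-3074-1-3p) normalized reads over the 6 libraries, and neither passed. The partner miR-24-3p was at 71064 ± 2009 in saline and 75475 ± 1163 in withdrawal (0.09 ± 0.03, limma, adjusted p = 0.0882), and the locus-specific arms miR-24-1-5p and miR-24-2-5p stood at -0.06 ± 0.07 and -0.06 ± 0.04 (adjusted p = 0.693 and 0.390). None of the 10 arms with lettered relatives (miR-1843a and b, miR-1191a and b, miR-3083 and miR-3083b) passed. Of all 699 tested miRNAs 6.58% passed, and 10 are too few to set these arms apart.

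For the abundant members the test bounds the size of any difference, given the authors' scaling and the fitted variance. Uncertainty of the scaling is not in these bounds. With equal library totals the log2 fold change of miR-1839-5p moved from 0.07 to 0.10 and that of miR-3059-5p from -0.09 to -0.06. The 95% interval of the log2 fold change ran from -0.03 to 0.11 for miR-1843b-5p, from -0.06 to 0.11 for miR-1843a-5p, from -0.01 to 0.16 for miR-1839-5p and from -0.08 to 0.06 for miR-1983. miR-3059-5p had the only interval among the 12 most abundant that left out 0, from -0.17 to -0.01, and missed the adjusted threshold (limma, adjusted p = 0.156). Its saline values were 6874, 6598 and 6844, all above the withdrawal values of 6554, 6394 and 6158.

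Precision followed level. The median half-width of the 95% interval was 0.63 on the log2 scale for the 101 tested members below 100 normalized reads, 0.22 for the 48 from 100 to 1000 and 0.10 for the 21 above. The calls in these classes numbered 1, 2 and 1 (0.990%, 4.17% and 4.76%), and among the other miRNAs of the same levels 0.00%, 5.15% and 11.7% passed. The call below 100 is miR-6238, which passed the filter only through the saline libraries. Over all tested members the median SE was 0.21, against 0.07 over all 699 miRNAs, so that differences of low members within these widths were not detectable at this depth.

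The balance of 5p over 3p arm, which shows which strand of a precursor is kept, could be compared for 21 late-numbered precursors. Strand preference was wide: miR-1198 had 126 times more 5p than 3p, miR-1306 and miR-1843a 47.3 and 45.4 times, and miR-1981 was nearly even at 1.19. In the other direction, miR-3084 had 10.5 times more 3p than 5p, miR-3061 4.42 and miR-3068 4.25. These are ratios of the arms' mean normalized reads over the 6 libraries, and read recovery can differ between arms. The test used log2((5p + 1)/(3p + 1)) in each library.

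No arm ratio passed in withdrawal against saline (0 of 21, with 1 at an unadjusted p below 0.05; 0.00% of all 203 precursors tested, 16.3% unadjusted; limma). The smallest p belonged to miR-6990, at log2 ratios of -1.51 ± 0.13 in saline and -3.43 ± 1.42 in withdrawal (difference -1.92 ± 0.71, limma, adjusted p = 0.285). The 5p arm is listed at 0 in withdrawal 3, and its withdrawal values are all below 10, so it passed the filter only through saline. Without withdrawal 3 the ratio passed (limma, adjusted p = 0.0303), which for the same reason supports nothing further. For miR-3068 the ratio was 0.18 ± 0.07 higher in withdrawal (adjusted p = 0.327), and for miR-3061 it was 0.26 ± 0.12 higher (adjusted p = 0.354), so for neither was an unequal change of the arms shown by the test.

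**Figure D5:**
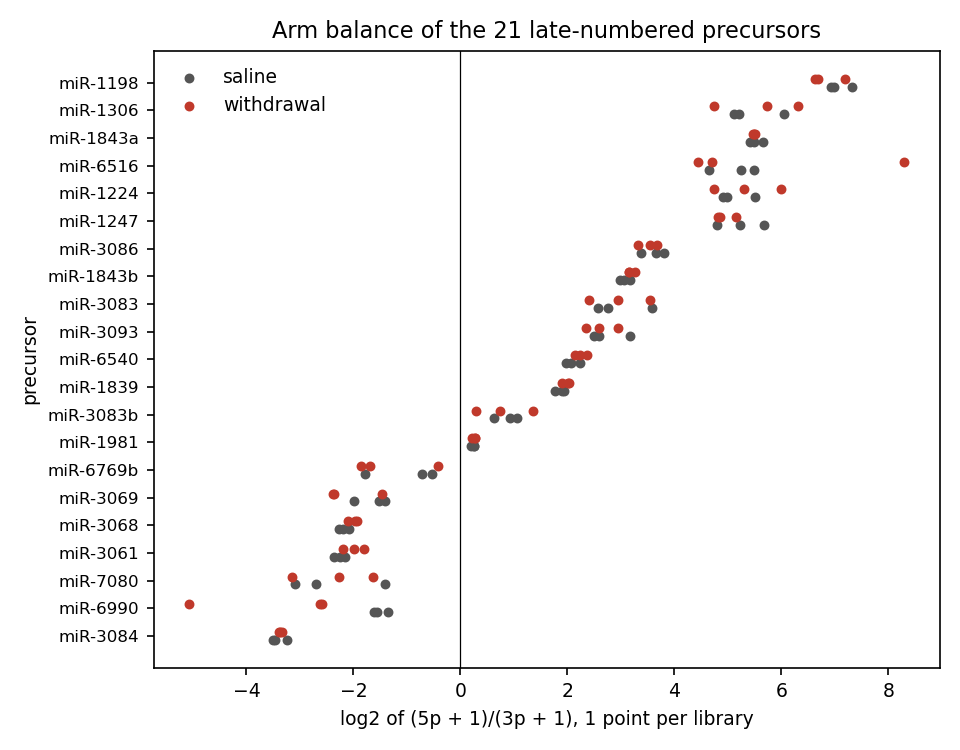
Log2 of (5p + 1)/(3p + 1) for the 21 late-numbered precursors with both arms tested, 1 point per library (grey saline, red withdrawal). The groups overlap in all but miR-6990, whose lowest point is withdrawal 3.

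The labelled tissue was checked with marker miRNAs of its cell types, none of which was at 0 in every library. The summed level of 4 neuronal markers was 2878402 to 2899444 in saline and 2806355 to 2879667 in withdrawal, with 1 of 4 lower. Of 2 oligodendrocyte markers 1 was lower, with sums of 101689 to 107397 in saline and 94529 to 97098 in withdrawal, and of 3 microglia and leukocyte markers none passed. In 9 choroid plexus and epithelial markers, 3 of the 8 tested were higher (miR-141-3p, miR-182-5p and miR-183-5p). The sum of the 9 was 91382 to 95087 in saline and 97566 to 99088 in withdrawal. Most of it was miR-204-5p, at means of 87931 and 92113, which did not pass (limma, adjusted p = 0.156). Without miR-204-5p the sum went from between 4649 and 4886 to between 5851 and 6904. Most of that was miR-182-5p, at means of 3733 and 4875. Of 3 erythrocyte markers 1 was higher, with sums of 109926 to 112805 and 122444 to 125573, and of 3 muscle markers 1 was higher. The part of these shifts in the differences of miR-3068-5p, miR-3085-3p, miR-3061-3p and miR-6238 was not tested.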

How the data were processed

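The authors deposited 1 table of normalized signal, that is, read counts per mature miRNA scaled by a factor for each library. Per the submitters' processing notes, DESeq2 and mm9 were used, with no further detail. The sources used here give neither the aligner, nor the miRNA release, nor how reads that match several miRNAs were handled. The values of a library were all whole multiples of 1 step (within 0.01 of a step), and the smallest positive value was 4 or 5 steps. Since no value of 1 step was listed, the planned count test was replaced by limma.

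Values were taken as log2(value + 1), kept where at least 10 in at least 3 libraries, and fitted in limma 3.58.1 (R 4.3.3, eBayes with a trend of variance on level) with saline and withdrawal as groups, over all 699 miRNAs. Arm ratios were fitted without the trend over 203 precursors. The code was tested on simulated data. Members and lists were chosen with earlier results of these data known. Named members are those that passed, the 12 of highest level, the 5 nearest to the threshold in each direction by p, the most abundant of each number block and list, and 3 arm ratios by p; other names were chosen after their values were seen. Sequences come from RefSeq tables of GRCm38.p6 and overlaps from GENCODE M21 of the same build. No library was a copy of another in its group, and pairs across the groups were not checked for this. Alternatives were other pseudocounts, filters and scalings, no trend, a replicate block, and each library left out. Tables and plots used Python 3.11.15, pandas 2.3.3, numpy 2.4.6 and matplotlib 3.10.9.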

Additional observations from a re-analysis of the deposited data

How the results depend on the processing

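The count of 4 late-numbered miRNAs past the threshold was 3 or 4 with other pseudocounts (0.5 and 5), no filter, a filter of 50, median-ratio rescaling, equal library totals, and a filter, added after seeing the data, that kept miRNAs above 0 in all 6 libraries. Without the variance trend 0 passed (smallest adjusted p = 0.141; 0 of all 699), and with quantile normalization 1 (miR-3085-3p); the cause was not tested. Leaving out 1 library gave from 0 (without saline 2) to 7 (without saline 1 or withdrawal 3), with 2 without saline 3, 3 without withdrawal 1 and 2 without withdrawal 2. A replicate block on the library numbers gave 7, the 4 and miR-6240, miR-1964-3p and miR-7046-3p. Same-numbered libraries deviated with r = -0.07, 0.09 and 0.04, so the numbers were not taken as pairs. Arm ratios past the threshold numbered 0 in each setting except without withdrawal 3, where miR-6990 passed (range 0 to 1 with 1 library left out). The 5p arm of miR-6990 passed the filter only through saline, so that pass supports nothing further. The difference in the members' share of reads, 0.0082 percentage points, moved by less than the spread between libraries and ranged from 0.0017 to 0.014 with 1 library left out. Of the values of single named miRNAs in the alternatives, 434 kept direction and side, 17 fell below the threshold, 9 came past it and 12 reversed, none of them a miRNA that passed. With equal library totals miR-1198-5p stood at 0.0060 and miR-1983 at 0.026, and with quantile normalization miR-1843b-5p stood at -0.036 and miR-1983 at 0.025. With 1 library left out, the log2 fold change ranged from -0.059 to 0.0026 for miR-1198-5p, -0.19 to 0.028 for miR-1249-3p, -0.0090 to 0.063 for miR-1843a-5p, -0.022 to 0.010 for miR-1983 and -0.0041 to 0.068 for miR-3068-3p. miR-1249-3p passed once, without saline 1 (-0.19, limma adjusted p = 0.0490). Planned count tests on recovered reads were not run.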
